A study of Mus musculus with 12 samples.

Results

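The 10 genes described here belong to the circadian clock and were measured in mesenchymal stem cells from mouse adipose tissue, a stromal cell type grown out of fat. The genes were chosen by name for their known roles in the clock. The rule uses no measured value, although earlier results of these data were known when it was set. They are 10 of the 56748 gene IDs in the count table. All 10 were among the 14338 gene IDs that passed the filter on low counts. The 2 activators were Bmal1, also called Arntl (ENSMUSG00000055116), and Clock (ENSMUSG00000029238). The repressors were Per1 (ENSMUSG00000020893), Per2 (ENSMUSG00000055866), Per3 (ENSMUSG00000028957), Cry1 (ENSMUSG00000020038) and Cry2 (ENSMUSG00000068742). Nr1d1 (ENSMUSG00000020889) and Nr1d2 (ENSMUSG00000021775) encode the nuclear receptors REV-ERB alpha and beta, and Dbp (ENSMUSG00000059824) encodes a transcription factor of clock output.

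RNA was sequenced from 12 libraries in 4 groups of 3: 3D spheroids at 24 h, 3D spheroids at 0 h, 2D cells at 24 h and 2D cells at 0 h. Spheroids are rounded cell aggregates, and the 2D cells were attached to a surface. Per the labels, both were kept in medium with serum, and no gene was altered or drug added in any group. The labels give no mouse strain, sex or age, no duration of spheroid formation before 0 h and no time of the last medium change. Nor is it stated that replicates came from separate cultures, so p-values cover the spread among these libraries alone, and that spread may be technical. Each culture was sampled at 2 times set 24 h apart, so a shift in the timing of a rhythm, a change in its amplitude and a change in mean level cannot be told apart. In bulk RNA, fewer cells expressing a gene and less of its RNA per cell cannot be told apart either. Marker genes of stromal and other cell types were not analysed here, because the tables used pair no gene ID with a name beyond the clock genes.

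In the mammalian clock, CLOCK and BMAL1 form a dimer that binds DNA elements called E-boxes and activates the Per, Cry, Nr1d and Dbp genes. PER and CRY proteins then accumulate and block the dimer, which closes a feedback loop with a period of about a day. REV-ERB receptors repress Bmal1 and other genes through elements called ROREs, and DBP activates genes through D-boxes. Because of this wiring, Bmal1 RNA and Dbp or Nr1d1 RNA run out of step in most mouse tissues, and Cry1, which is under both E-box and RORE control, peaks later than the other E-box genes. Cultured fibroblasts and stromal cells carry such clocks, which drift apart between cells unless a common signal sets them.

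Promoter sequences are shown for the 3 genes whose upstream windows held an E-box or a D-box, because genes with these elements moved in different directions below. RefSeq promoter windows on build GRCm38.p6, a different build from that of the counts, matched 9 of the 10 genes (Bmal1 as Arntl), with 13 windows in all. The 250 bases before each start site were searched on both strands for the E-box CACGTG, the D-box TTATGTAA and the RORE half-site AGGTCA, which do not overlap in these windows. The E-box was found in 1 window each of Per1 and Cry1, and in 6.02% of all 32851 windows. The D-box was found in Per3 alone among these genes, in 2 copies, and in 0.819% of all windows. The RORE half-site was found in 1 window each of Per1, Clock and Nr1d2, and in 14.0% of all windows. A match describes the letters only, and Per2 had no entry. Sites outside these 250 bases or with other letters were not searched, so a gene without a match may still carry such an element. The windows are written 5′ to 3′ on the strand of the gene, with matches in capitals. For Per1 (chr11:69098699-69098948, plus strand) the E-box begins 166 bases before the start site, and the second capital run is the RORE half-site read on the other strand. For Per3 (chr4:151044666-151044915, minus strand) the D-boxes begin 205 and 158 bases before it. For Cry1 (chr10:85185055-85185304, minus strand) the E-box begins 60 bases before it.
Per1: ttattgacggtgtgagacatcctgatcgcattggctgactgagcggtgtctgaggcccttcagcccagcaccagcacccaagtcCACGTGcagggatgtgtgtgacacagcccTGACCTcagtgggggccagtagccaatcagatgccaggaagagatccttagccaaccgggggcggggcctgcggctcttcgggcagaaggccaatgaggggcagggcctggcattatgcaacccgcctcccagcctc
Per3: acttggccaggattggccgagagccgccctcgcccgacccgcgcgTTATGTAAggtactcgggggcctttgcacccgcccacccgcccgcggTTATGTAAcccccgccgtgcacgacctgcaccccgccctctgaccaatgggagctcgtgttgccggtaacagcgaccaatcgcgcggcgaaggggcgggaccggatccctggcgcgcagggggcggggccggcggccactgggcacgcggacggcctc
Cry1: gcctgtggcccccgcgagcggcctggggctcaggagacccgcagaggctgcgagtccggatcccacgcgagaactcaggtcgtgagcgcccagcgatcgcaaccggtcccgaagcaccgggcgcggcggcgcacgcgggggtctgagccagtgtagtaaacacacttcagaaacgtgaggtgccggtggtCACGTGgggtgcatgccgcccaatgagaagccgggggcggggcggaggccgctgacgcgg

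Libraries held between 10182590 and 17109609 expected counts. Spheroid replicate 1 at 24 h was the deepest and stood apart in gene IDs with a count: 20008, against 17046 to 18803 in the others. Its counts differed from those of its group's replicates 2 and 3 by a chi-square per degree of freedom of 28.7 and 22.5. Those replicates differed from each other by 6.34. In 2D at 24 h, replicate 1 likewise differed from replicates 2 and 3 by 22.0 and 15.2, against 6.15 between those. Pairs in the other groups ran from 4.62 to 36.7. Clock, Per1, Per2, Per3, Cry2, Nr1d1 and Nr1d2 had their highest 3D level at 24 h in spheroid replicate 1, Per3 by a narrow margin. Fits without spheroid replicate 1 at 24 h are given below for Clock, Per2, Nr1d1 and Nr1d2. Levels below are CPM, counts divided by the size of their library, with TMM correcting for library composition. TPM, which is also scaled by gene length, is used where it is named. The clock genes were of moderate abundance: mean levels ran from 5.12 CPM for Per2, above 26.4% of the tested genes, to 57.4 CPM for Nr1d1, above 75.1%. Per2 rested on 36 to 127 counts per library. The expected counts of Dbp were not whole in 12 libraries and those of Nr1d1 in 11, so some of their reads were shared out with other genes. In the RefSeq table Dbp overlaps Sphk2 and Nr1d1 overlaps Thra. Per3 overlaps Uts2, and Per2, Cry2, Bmal1 and Clock overlap noncoding genes or a pseudogene. The strand setting of the counting is not given in the sources used here, so reads of such pairs may not have been kept apart, and these levels carry that uncertainty. Changes depend on the scaling, which moved the median gene. For 3D against 2D at 0 h the median gene lay at a log2 fold change of 0.02 under TMM and at 0.14 with upper-quartile scaling. For 24 h against 0 h in 2D it lay at 0.02 under TMM and at 0.17 with log2(TPM + 1) values. For 3D against 2D at 24 h it lay at 0.12 with library totals.

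**Figure D1:**
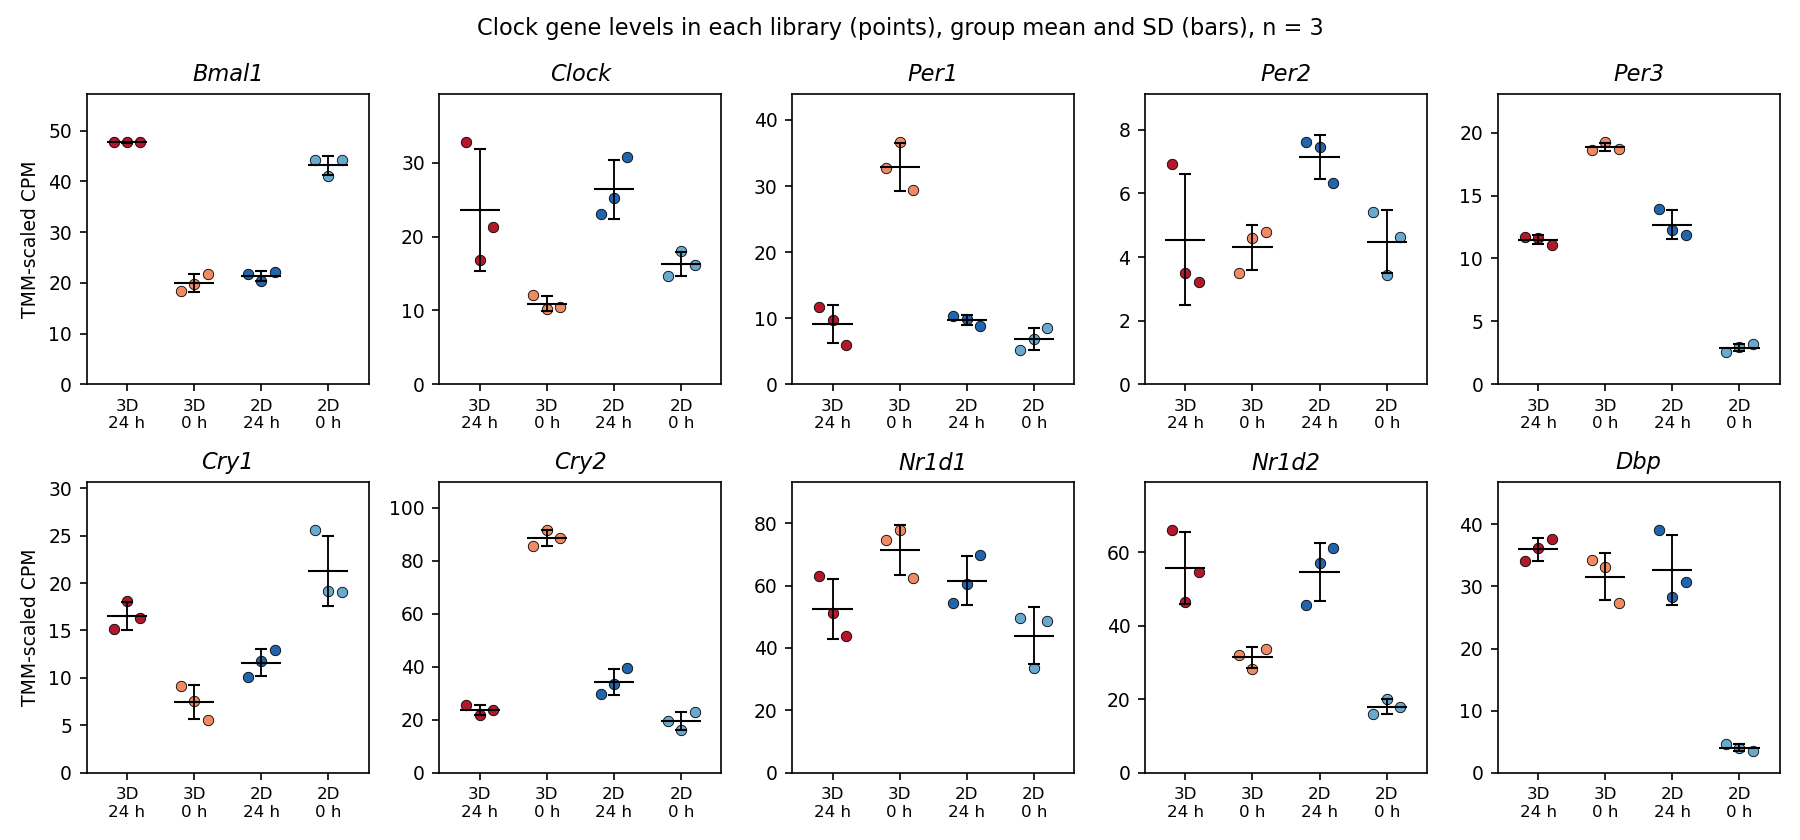
Level of each clock gene in TMM-scaled CPM (vertical axes, from 0) in 3D spheroids at 24 h and 0 h and in 2D cells at 24 h and 0 h. Points are libraries, and bars are the group mean and SD over 3 libraries. Bmal1 averages 47.7 CPM in 3D at 24 h, against 43.2 CPM in 2D at 0 h, and the remaining groups lie lower (20.0 CPM in 3D at 0 h, 21.4 CPM in 2D at 24 h), while Dbp is low only in 2D at 0 h.

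The activator Bmal1 had 47.7, 47.8 and 47.7 CPM in 3D at 24 h and 18.3, 19.8 and 21.7 CPM in 3D at 0 h. In 2D it had 21.8, 20.3 and 22.2 CPM at 24 h and 44.2, 41.0 and 44.3 CPM at 0 h. Its level was thus high in spheroids at 24 h and attached cells at 0 h, low in the other 2 groups, and the high and low groups did not overlap. Its partner Clock did not follow it in both cultures. In 3D both genes were higher at 24 h than at 0 h, but in 2D Bmal1 was lower and Clock higher. Clock had 32.8, 16.8 and 21.4 CPM in 3D at 24 h and 12.1, 10.3 and 10.4 CPM in 3D at 0 h. It had 23.1, 25.3 and 30.8 CPM in 2D at 24 h and 14.7, 18.0 and 16.2 CPM in 2D at 0 h. Both cultures were higher at 24 h than at 0 h, and spheroid replicate 1 at 24 h lay above every other library.

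Dbp, the output gene, had 34.0, 36.2 and 37.7 CPM in 3D at 24 h and 34.3, 33.1 and 27.3 CPM in 3D at 0 h. In 2D it had 39.0, 28.3 and 30.6 CPM at 24 h but 4.64, 3.94 and 3.52 CPM at 0 h. In CPM the first 3 groups overlapped their neighbours, and 2D at 0 h stood apart, with a highest group mean 8.92 times the lowest. On the TPM scale all 3D libraries at 24 h lay above those of 3D at 0 h for Dbp. The gene length implied by its counts and TPM differed between libraries by up to 1.51 times. The REV-ERB genes were also lowest in 2D at 0 h. In 3D, Nr1d2 had 65.9, 46.6 and 54.5 CPM at 24 h against 32.2, 28.3 and 33.8 CPM at 0 h. In 2D it had 45.7, 57.0 and 61.1 CPM at 24 h against 16.0, 20.1 and 17.9 CPM at 0 h. The 24 h groups overlapped, and below them came 3D at 0 h and then 2D at 0 h, each apart from its neighbour. Nr1d1 differed least between the groups, with a highest group mean 1.63 times the lowest. Its libraries ran from 43.7 to 62.9 CPM in 3D at 24 h, from 62.4 to 77.6 CPM in 3D at 0 h, from 54.3 to 69.9 CPM in 2D at 24 h and from 33.4 to 49.6 CPM in 2D at 0 h, and each group overlapped the next in order.

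Of the period genes, Per1 had 11.7, 9.70 and 5.98 CPM in 3D at 24 h and 32.7, 36.7 and 29.4 CPM in 3D at 0 h. In 2D it had 10.3, 9.90 and 8.87 CPM at 24 h and 5.25, 6.79 and 8.55 CPM at 0 h. Spheroids at 0 h stood apart, and the other 3 groups overlapped their neighbours. Per3, whose promoter carries the pair of D-boxes above, had 11.7, 11.7 and 11.1 CPM in 3D at 24 h and 18.6, 19.3 and 18.7 CPM in 3D at 0 h. It had 14.0, 12.2 and 11.8 CPM in 2D at 24 h and 2.58, 2.99 and 3.17 CPM in 2D at 0 h. Its 4 groups did not overlap, although 3D and 2D at 24 h were separated by a narrow margin and overlapped on the TPM scale. In 3D, Per2 had 6.92, 3.51 and 3.21 CPM at 24 h against 3.51, 4.61 and 4.79 CPM at 0 h. In 2D it had 7.62, 7.47 and 6.34 CPM at 24 h against 5.42, 3.43 and 4.62 CPM at 0 h. Its groups overlapped their neighbours throughout.

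The cryptochromes ran opposite to each other. Cry2 had 25.7, 21.8 and 23.6 CPM in 3D at 24 h and 85.7, 91.5 and 88.7 CPM in 3D at 0 h. It had 29.7, 33.4 and 39.6 CPM in 2D at 24 h and 19.7, 16.1 and 23.0 CPM in 2D at 0 h, so that spheroids at 0 h were high and the other groups lay between 16.1 and 39.6 CPM. At 24 h the 3D libraries lay below the 2D libraries in CPM but overlapped them on the TPM scale. Cry1 had 15.1, 18.1 and 16.3 CPM in 3D at 24 h and 9.16, 7.59 and 5.54 CPM in 3D at 0 h. It had 10.1, 11.8 and 13.0 CPM in 2D at 24 h and 25.5, 19.2 and 19.0 CPM in 2D at 0 h. Its 4 groups did not overlap, and their order (2D at 0 h, 3D at 24 h, 2D at 24 h, 3D at 0 h) placed the same pair of groups on top as for Bmal1.

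The first comparison asked how the clock genes of spheroids differed from those of attached cells at 0 h. Of the 10 genes, 6 were higher in 3D and 3 lower, where 23.1% of all tested genes were higher and 22.7% lower (edgeR quasi-likelihood test, adjusted p under 0.05). Among all called genes 50.4% were higher, against 60.7% with upper-quartile scaling and 62.0% with limma on log2(TPM + 1) values. The higher genes were Dbp, Per3, Per1, Cry2, Nr1d2 and Nr1d1, which encode repressors or output factors, and the lower ones were Cry1, Bmal1 and Clock. Dbp was 7.84-fold higher in 3D (log2 fold change 2.97 ± 0.17, SE, edgeR adjusted p = 6.1e-10), a larger change than in 97.5% of the tested genes. Per3 was 6.43-fold higher (log2 fold change 2.69 ± 0.18, adjusted p = 3.0e-09), Per1 4.77-fold (2.25 ± 0.23, adjusted p = 4.6e-07) and Cry2 4.52-fold (2.18 ± 0.15, adjusted p = 3.5e-09). The REV-ERB genes moved less, with log2 fold changes of 0.80 ± 0.16 for Nr1d2 (adjusted p = 0.00048) and 0.70 ± 0.17 for Nr1d1 (adjusted p = 0.0023). Downward, Cry1 fell by 1.52 ± 0.20 on the log2 scale (adjusted p = 9.6e-06) and Bmal1 by 1.11 ± 0.12 (adjusted p = 8.0e-07). Per2 was not called, with a log2 fold change of -0.05 and a 95% interval from -0.71 to 0.60. For the 9 called genes the libraries of the 2 groups did not overlap. How often other genes separate in this way was not counted, and an exact rank test of 3 libraries against 3 gives no p under 0.1. The separation therefore adds no test to the calls. The median absolute log2 fold change of the clock genes was 1.32, against 0.50 over all tested genes.

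The call of Clock at 0 h was the weakest. It was lower in 3D by a log2 fold change of -0.58 ± 0.21 (edgeR adjusted p = 0.035), and the call ended under 7 of 13 alternatives. These were upper-quartile scaling (adjusted p = 0.086), library totals (0.084), limma on log2(TPM + 1) values (0.49), and the fits without 2D replicate 2 (0.097), 2D replicate 3 (0.071), 3D replicate 2 (0.11) or 3D replicate 3 (0.095).

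At 24 h the same question gave a different set. Bmal1 was 2.23-fold higher in 3D (log2 fold change 1.15 ± 0.12, edgeR adjusted p = 4.2e-07). It was the 1 clock gene of 10 called with a change of at least 2-fold, where 18% of all tested genes were. Of the 10 genes, 2 were higher and 1 lower, against 19.6% higher and 22.8% lower among all tested genes. Among all called genes 46.2% were higher, against 57.4% with library totals. The other calls were Cry1, higher by a log2 fold change of 0.50 ± 0.19 (adjusted p = 0.045), and Cry2, lower by -0.53 ± 0.14 (adjusted p = 0.0066). Neither held throughout: without 2D replicate 3, the Cry2 call ended (adjusted p = 0.054), the Cry1 call ended as well (also 0.054), and Bmal1 was the 1 gene left. The Cry1 call also ended without 2D replicate 1 (0.098), 2D replicate 2 (0.065), 3D replicate 2 (0.14) or 3D replicate 3 (0.075). With limma on log2(TPM + 1) values both ended (0.27 for Cry1 and 0.15 for Cry2).

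Dbp, Per3 and Per1, which had the highest folds at 0 h, had intervals that included 0 at 24 h. The log2 fold change of 3D against 2D was 0.14 for Dbp (95% interval -0.17 to 0.45), -0.14 for Per3 (-0.48 to 0.20) and -0.08 for Per1 (-0.56 to 0.40). Nr1d2 stood at 0.03 (-0.29 to 0.34), Nr1d1 at -0.23 (-0.57 to 0.12) and Clock at -0.15 (-0.58 to 0.27). Per2 stood at -0.63 (-1.26 to 0.00) and was not called (adjusted p = 0.10). Without 3D replicate 1, which had 6.92 CPM against 3.51 and 3.21 CPM in the other 3D libraries, Per2 was called at a log2 fold change of -1.06 (adjusted p = 0.0099). The same fit gave -0.44 for Clock (adjusted p = 0.065), -0.35 for Nr1d1 (0.12) and -0.09 for Nr1d2 (0.70), none of them called. The median absolute log2 fold change of the clock genes was 0.19 at this time, against 0.46 over all tested genes.

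**Figure D2:**
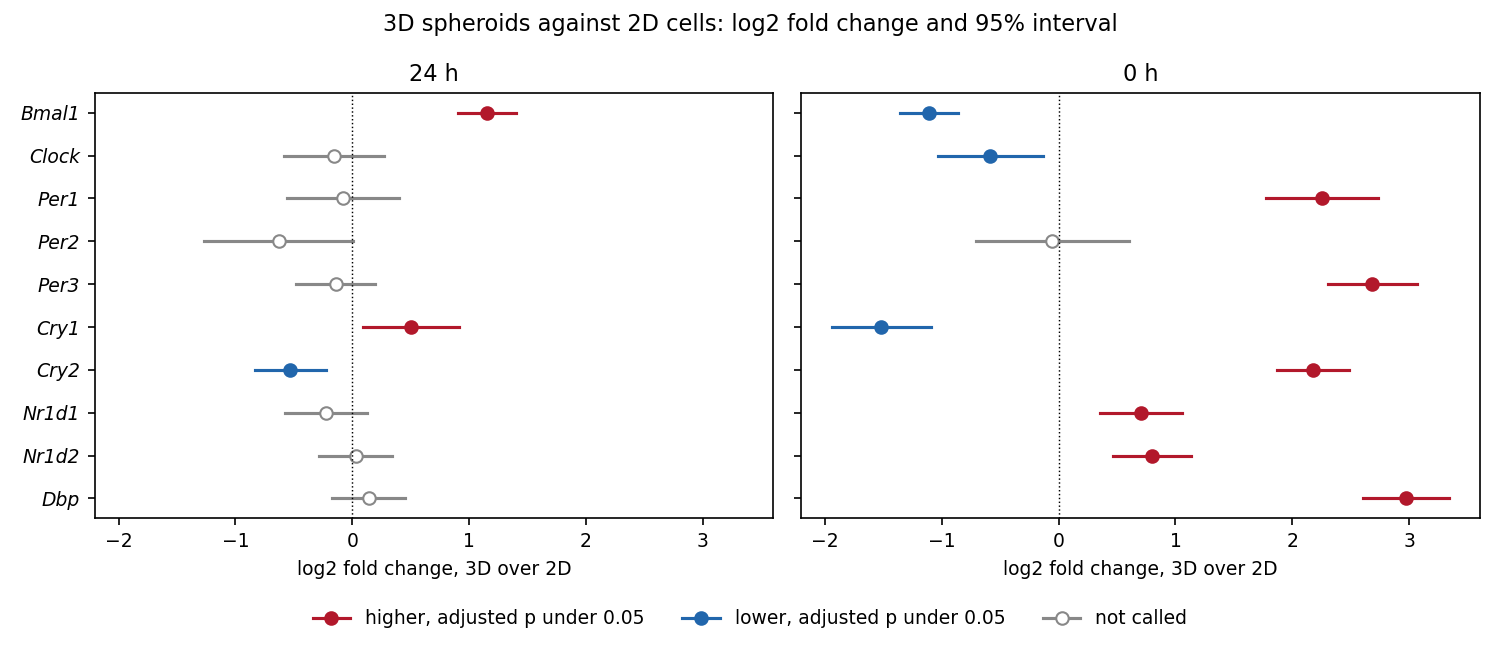
Log2 fold change of 3D spheroids over 2D cells for each clock gene at 24 h (left) and at 0 h (right), with edgeR's estimate as a point and its approximate 95% interval as a line. Filled points passed the adjusted p. At 0 h Dbp reaches 2.97 and Cry1 -1.52, and at 24 h 7 of the 10 intervals belong to genes not called.

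The test of the difference itself asked whether the culture effect changed between the times. It did for 8 of the 10 genes: the log2 fold change of 3D over 2D was larger at 24 h than at 0 h for 2 genes and smaller for 6, where 18.7% and 20.5% of all tested genes did so. Bmal1 was higher in 3D at 24 h and lower in 3D at 0 h, with a log2 difference of 2.27 ± 0.17 (edgeR adjusted p = 1.5e-08). Cry1 had a difference of 2.02 ± 0.28 (adjusted p = 2.1e-05). On the other side were Dbp at -2.83 ± 0.23 (adjusted p = 4.4e-08), Per3 at -2.83 ± 0.24 (adjusted p = 8.6e-08), Cry2 at -2.71 ± 0.21 (adjusted p = 2.1e-08) and Per1 at -2.33 ± 0.32 (adjusted p = 2.0e-05). The REV-ERB genes had smaller differences, -0.93 ± 0.23 for Nr1d1 (adjusted p = 0.0045) and -0.77 ± 0.22 for Nr1d2 (adjusted p = 0.0088). Clock (0.43, 95% interval -0.19 to 1.05) and Per2 (-0.58, -1.49 to 0.33) were not called. These 8 calls held under all 18 alternatives run for this comparison.

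Over 24 h in 2D, 6 clock genes rose and 2 fell, where 17.4% of all tested genes rose and 17.0% fell. Among all called genes 50.5% had risen, against 69.7% with limma on log2(TPM + 1) values. Dbp was 8.12-fold higher at 24 h (log2 fold change 3.02 ± 0.17, edgeR adjusted p = 3.3e-09), a larger change than in 99.1% of tested genes. Per3 was 4.32-fold higher (2.11 ± 0.18, adjusted p = 3.2e-07) and Nr1d2 3.03-fold (1.60 ± 0.16, adjusted p = 1.5e-06). Cry2 rose by a log2 fold change of 0.81 ± 0.15 (adjusted p = 0.00057). Bmal1 fell by 1.01 ± 0.12 on the log2 scale (adjusted p = 9.1e-06) and Cry1 by 0.87 ± 0.19 (adjusted p = 0.0026), and with limma on log2(TPM + 1) values the Cry1 call ended (adjusted p = 0.096). This comparison and that of 3D with 2D at 0 h share the 2D libraries at 0 h.

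Clock, Nr1d1 and Per1 moved less clearly over 24 h in 2D. Clock rose by a log2 fold change of 0.70 ± 0.21 (edgeR adjusted p = 0.015), a call that ended without 2D replicate 1 at 0 h (adjusted p = 0.060) or 2D replicate 3 at 24 h (0.085), and narrowly with limma on log2(TPM + 1) values (0.050). Nr1d1 rose by 0.49 ± 0.17 (adjusted p = 0.032), a call that ended without 2D replicate 2 at 0 h (0.12), 2D replicate 2 at 24 h (0.062) or 2D replicate 3 at 24 h (0.15). Per1 was not called at 0.49 ± 0.23 (adjusted p = 0.11), but was called at 0.70 without 2D replicate 3 at 0 h (adjusted p = 0.042). Per2 was not called at 0.67 ± 0.30 (adjusted p = 0.097). For both Per1 and Per2 the CPM values of the 24 h libraries all lay above those at 0 h, although on the TPM scale those of Per1 overlapped. The same held for the 6 genes that rose, while Bmal1 and Cry1 lay below. How often genes outside the clock separate in this way was not counted, so the separation is not read as a rise of Per1 or Per2.

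Over 24 h in 3D, 4 clock genes rose and 4 fell, where 23.8% of all tested genes rose and 24.7% fell. The activators and Cry1 rose: Bmal1 was 2.39-fold higher at 24 h (log2 fold change 1.26 ± 0.12, edgeR adjusted p = 1.7e-07), Cry1 2.23-fold (1.15 ± 0.20, adjusted p = 0.00015) and Clock 2.18-fold (1.13 ± 0.21, adjusted p = 0.00033). Nr1d2 rose by a log2 fold change of 0.83 ± 0.15 (adjusted p = 0.00025). Without 3D replicate 1 at 24 h the log2 fold change was 0.83 for Clock (adjusted p = 0.0017) and 0.71 for Nr1d2 (adjusted p = 0.0014). In that fit it was -0.57 for Nr1d1 (adjusted p = 0.015) and -0.34 for Per2 (adjusted p = 0.40), and 4 clock genes rose and 4 fell. Cry2 fell by 1.90 ± 0.14 on the log2 scale (adjusted p = 1.4e-08), Per1 by 1.84 ± 0.22 (adjusted p = 3.2e-06) and Per3 by 0.72 ± 0.16 (adjusted p = 0.0013). Nr1d1 was called lower at -0.44 ± 0.17 (adjusted p = 0.036), but its libraries overlapped between the times. That call ended with library totals (0.078), with limma on log2(TPM + 1) values (0.15) and without 3D replicate 1 (0.12) or 2 (0.15) at 0 h, or 2 (0.087) or 3 (0.20) at 24 h. Dbp was not called, with a log2 fold change of 0.19 and a 95% interval from -0.12 to 0.50, and neither was Per2 (0.09, -0.56 to 0.74).

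Set side by side, the 2 cultures gave opposite signs over 24 h for Bmal1, Cry1, Cry2 and Per3, each called in both. The 2D call of Cry1 ended under 1 of 13 alternatives. How many of all tested genes had opposite calls in the 2 cultures was not counted. Nr1d1 also had opposite signs, with calls that did not hold under every alternative in either culture. Nr1d2 and Clock rose in both cultures, although the 2D call of Clock ended under 3 of 13 alternatives. The test of the difference above covers these contrasts, since the change over time in 3D minus that in 2D is the same quantity as the culture difference at 24 h minus that at 0 h.

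**Figure D3:**
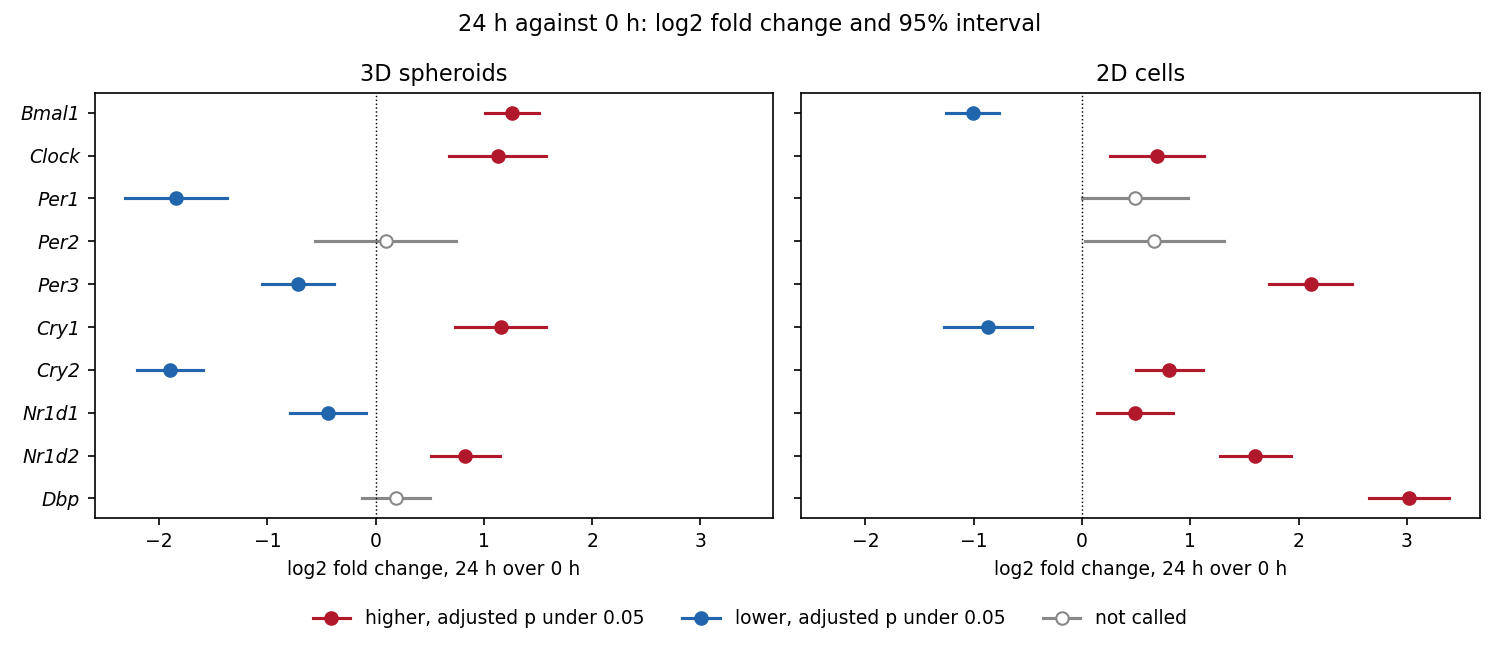
Log2 fold change of 24 h over 0 h for each clock gene in 3D spheroids (left) and in 2D cells (right), with edgeR's estimate as a point and its approximate 95% interval as a line. Filled points passed the adjusted p. Bmal1 stands at 1.26 in 3D and at -1.01 in 2D, and Dbp at 0.19 in 3D and at 3.02 in 2D.

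Ratios of 2 genes within a library do not depend on how libraries are scaled. The TPM ratio of Dbp to Bmal1 was 1.38, 1.44 and 1.51 in 3D at 24 h and 3.43, 3.03 and 2.34 in 3D at 0 h. It was 3.51, 2.57 and 2.72 in 2D at 24 h and 0.207, 0.192 and 0.222 in 2D at 0 h. At 24 h all 3D libraries therefore lay below all 2D libraries, and at 0 h all lay above them. The same order held for the ratio of their counts. By counts, however, the ratio in 3D at 24 h was 0.714, 0.758 and 0.790, below 1. The TPM ratio of Nr1d1 to Bmal1 ran from 1.00 to 1.42 in 3D at 24 h and from 3.08 to 4.33 in 3D at 0 h. In 2D it ran from 2.72 to 3.40 at 24 h and from 0.885 to 1.20 at 0 h. It split the groups as Bmal1 itself did, with 3D at 24 h and 2D at 0 h low and overlapping.

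**Figure D4:**
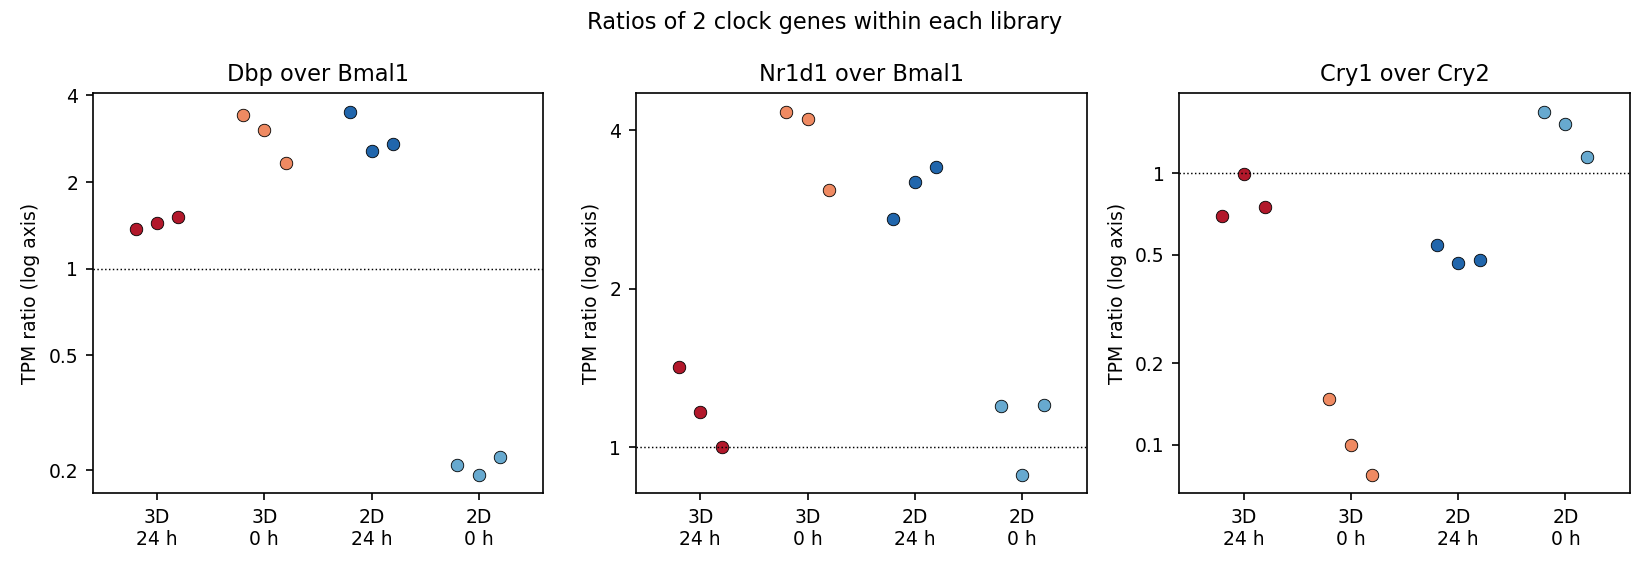
TPM ratio of Dbp to Bmal1, Nr1d1 to Bmal1 and Cry1 to Cry2 in each library (points), on log axes, in 3D spheroids at 24 h and 0 h and in 2D cells at 24 h and 0 h. The dotted line marks a ratio of 1. Dbp to Bmal1 lies between 0.192 and 0.222 in 2D at 0 h and above 1 in every other library, and Cry1 to Cry2 exceeds 1 only in 2D at 0 h.

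The balance of the cryptochromes differed between the groups. On the TPM scale Cry2 made up 59.0%, 50.2% and 57.1% of the summed Cry level in 3D at 24 h and 87.1%, 90.9% and 92.8% in 3D at 0 h. It made up 64.8%, 68.2% and 67.7% in 2D at 24 h and 37.3%, 39.8% and 46.6% in 2D at 0 h. On this scale none of the groups overlapped, and in 2D at 0 h Cry1 was the more abundant of the pair in every library. By counts, which do not divide by length, the ratio of Cry1 to Cry2 was 0.590, 0.831 and 0.690 in 3D at 24 h and 1.30, 1.20 and 0.829 in 2D at 0 h, so these groups overlapped and 2D replicate 3 lay below 1. The gene length implied by the counts and TPM of Cry1 differed between libraries by up to 1.35 times.

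Within the period family, Per2 had the lowest TPM of the 3 genes in 11 of 12 libraries. Per1 shares were less certain, because the gene length implied by its counts and TPM differed between libraries by up to 2.76 times, against a median of 1.21 over 9385 well-counted genes. In 3D at 24 h its TPM values were 5.62, 9.78 and 2.41, where its CPM values were 11.7, 9.70 and 5.98.

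Among genes averaging 10 CPM or more, those whose log2 CPM followed Dbp most closely over the 12 libraries were ENSMUSG00000002325 (Pearson's r = 0.99) and ENSMUSG00000078350 (r = 0.98). For Bmal1 they were ENSMUSG00000003948 (r = 0.99) and ENSMUSG00000002885 (r = 0.98). Among the clock genes, Per3 was the closest to Dbp (r = 0.94) and Cry1 the closest to Bmal1 (r = 0.82). These values describe 4 groups of 3 libraries each, searched over 9161 genes, and carry no test.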

How the data were processed

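A SMART-seq v4 low-input kit and a stranded TruSeq mRNA kit were used, per the labels' protocols. Build GRCm39 and the tools STAR, RSEM and FastQC 0.11.9 are listed in the submitters' processing notes, whose settings and gene annotation were not given in the sources used here. Expected counts for each gene, which are estimates and may be fractional, and log2(TPM + 1) values were deposited by the authors. Column names give day 0 and day 1, read as 0 h and 24 h.

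Rounded expected counts of the whole table were fitted with edgeR 4.0.16 under R 4.3.3: expression filter with a minimum count of 10, TMM scaling, and a quasi-likelihood fit with 1 term per group over 12 libraries, with 8 residual degrees of freedom. Calls were made at an adjusted p under 0.05 (Benjamini-Hochberg over all 14338 genes). SEs were taken from the F statistic and 95% intervals from its t distribution, so both are approximate. The fit was tested on simulated data with known changes. TPM was computed back from the deposited log2 values by removing the pseudocount of 1.

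Alternatives were upper-quartile scaling, library totals, DESeq2 1.42.0, no filter, limma 3.58.1 on the log2(TPM + 1) values, the replicate number as a block, only the groups compared, and leaving out each library. All 10 clock genes are named by rule. The genes were chosen by role, without a measured value in the rule, but they, the lists and the tests were chosen with earlier results of these data known. Lists of further clock genes and of cell type markers, given by symbol, were not analysed here, since the gene IDs did not match the RefSeq table. Replicate numbers did not pair the libraries: the correlation of deviations between libraries of the same number ran from -0.23 to 0.05 over all pairs of groups. No replicate pair agreed within sampling noise (chi-square per degree of freedom 4.62 to 36.7).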

Additional observations from a re-analysis of the deposited data

Results flagged for a closer look

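By edgeR's test of that difference, the 3D against 2D log2 fold change differed between 24 h and 0 h for 8 of the 10 clock genes. It was larger at 24 h for 18.7% of all tested genes and smaller for 20.5%. The value at 24 h minus that at 0 h was 2.27 for Bmal1 and 2.02 for Cry1. It was -2.83 for Dbp, -2.83 for Per3, -2.71 for Cry2, -2.33 for Per1, -0.93 for Nr1d1 and -0.77 for Nr1d2. For Bmal1 and Cry1 all 3D libraries exceeded all 2D libraries at 24 h, and the reverse held at 0 h. For Cry2 all 3D libraries were lower at 24 h in CPM, although they overlapped the 2D libraries in TPM, and higher at 0 h. The rate of such separation over all genes was not counted. What the differences between the times rest on was not tested. Groups of 3 libraries are too small for the test of single outlying samples, which needs at least 4.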

How the results depend on the processing

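Of 700 values over the 50 gene and comparison pairs, 669 kept their side of the threshold under an alternative, 29 lost a call, 2 gained one and 0 called values changed sign. Values of genes that were not called could change sign and were counted with the 669. Of the calls that ended, those of Clock at 0 h (7 of 13 alternatives), Cry1 at 24 h (7 of 13) and Nr1d1 over 24 h in 3D (6 of 13) were the most frequent. The number of clock genes called for 3D against 2D at 24 h was 3, and 1 with limma on log2(TPM + 1) values, where the cause was not tested. Leaving out 1 library gave 1 to 4 there, 8 to 9 at 0 h, 6 to 9 over 24 h in 2D, 7 to 8 over 24 h in 3D and 8 in every case for the difference between the times. The calls over all genes moved as well: in the same order they ran from 5027 to 5921, 5612 to 6509, 3424 to 5057, 5938 to 6348 and 4857 to 5870. With the replicate number as a block, the number called was 9 for 3D against 2D at 0 h, and the call of Cry1 at 24 h ended (adjusted p = 0.068). The numbers gave no sign of pairing, so that loss is not read as a weaker effect. Per2 rested on at most 127 counts in a library, which limits what could be detected for it.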
